A study of Homo sapiens with 9 samples.

Results

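The transcripts described here are those of 35 genes listed as direct targets of the transcription factor p53, chosen by symbol and matched through their Ensembl identifiers. Of these, 32 had a row and EDA2R, SPATA18 and TRIM22 were not analysed here. All 32 reached at least 1 CPM (the reads of a gene scaled to a common library total) in at least 3 of the 9 libraries, and so were among the 13893 genes tested of 15354 rows.

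p53 is held at low levels in resting cells by the ubiquitin ligase MDM2. After DNA damage, ribosomal or metabolic stress it is released from MDM2, binds paired half-sites near its target genes and raises their transcription. The targets stop the cell cycle, repair DNA, alter metabolism or drive cell death, and some of them switch p53 off again.

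The libraries came from the established colorectal cancer line HCT116, reverse transfected at 25 nM with a non-targeting control siRNA, with siRNA A or with siRNA B, both directed against the long non-coding RNA SNHG5. Cells were collected after 36 h per the study's methods, with 3 biological replicates in each group, and oligo-dT purified RNA was read as single ends of 50 bases. The study asked what loss of SNHG5 does to the growth and survival of these cells. All groups are the same single line, so the comparisons describe that line only.

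Each library held between 15566530 and 23277549 reads. Levels below are CPM rescaled by TMM (trimmed mean of M values, a factor that sets the typical gene equal between libraries) and are called scaled CPM. Changes are log2 fold changes of scaled CPM + 1 with their standard error (SE), and a gene was called when limma's Benjamini-Hochberg adjusted p over all tested genes was under 0.05. SNHG5 itself went against its labels. It stood at 26.5 ± 4.66 scaled CPM in control libraries, 65.9 ± 6.45 in the siRNA A group and 47.5 ± 2.4 in the siRNA B group (SD, n = 3), with every siRNA library above every control library. In the annotation used, SNHG5 shares 943 and 715 exon bases with a protein-coding gene and a pseudogene on the same strand. The groups are therefore written as labelled siRNA A and labelled siRNA B, and "with siRNA A" below means in the libraries so labelled. Both comparisons with control share the same 3 control libraries. Of the colon epithelium markers 7 of 10 were tested, with summed levels of 2096 to 3441 CPM per library. Summed fibroblast markers lay at 8.59 to 19.7 CPM and leukocyte markers at 0.627 to 1.67 CPM, with 1 gene of each list tested, and none of the 4 endothelium markers was analysed here. In bulk RNA, fewer cells of a kind and less RNA per cell cannot be told apart.

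To show where p53 could act on these genes, the p53 response element consensus was searched in GRCh37 within 3000 bases on either side of the canonical start of each gene. The consensus is a pair of abutting 10-base half-sites that reads the same on both strands. Both 4-base cores had to match and at most 2 mismatches were allowed elsewhere. A match was found for 12 of 31 members scanned (38.7%) and for 372 of 13349 tested genes (2.79%). The members were chosen as listed direct p53 targets, so these shares are no independent test of the list. FAS was not scanned, since it had no canonical start in the annotation used. The sites of the members whose levels moved most are printed 5′ to 3′ on the strand of the gene, with the cores in capitals.
CDKN1A: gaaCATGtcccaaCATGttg
BTG2: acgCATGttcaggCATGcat
GADD45A: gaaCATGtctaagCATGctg
PLK2: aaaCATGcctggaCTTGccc
GDF15: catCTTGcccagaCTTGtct
ZMAT3: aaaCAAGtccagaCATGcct

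The CDKN1A site lay at chr6:36644226-36644245, 2256 bases upstream of the canonical start and across the first exon of a longer transcript. The BTG2 site at chr1:203272770-203272789 lay outside the gene, 1868 bases upstream. The GADD45A site at chr1:68152458-68152477 was intronic, 1583 bases downstream of the start. The PLK2 site at chr5:57758101-57758120 lay outside the gene, 2197 bases upstream, and had 0 mismatches. For GDF15 the match at chr19:18496118-18496137 was 841 bases upstream of the canonical start, inside an intron of a longer transcript. For ZMAT3 it was at chr3:178787976-178787995, intronic, 1612 bases downstream of the start and also without mismatches. A match describes letters in the window and does not show binding.

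Most p53 target genes rose in libraries labelled siRNA B. In those labelled siRNA A, members were called in both directions, as were all tested genes. The member median there lay close to that of all tested genes. With siRNA B, 19 of the 32 members were higher than control, 1 was lower and 12 were not called, against a background of 15.6% of all tested genes called higher and 18.3% called lower. With siRNA A, 11 members were higher, 10 were lower and 11 were not called, while 23.9% of all tested genes were called higher and 27.6% lower. The median log2 fold change of the members was 0.50 with siRNA B and −0.03 with siRNA A, beside 0.0043 and −0.02 over all tested genes. Tested directly against each other, 19 members were lower with siRNA A than with siRNA B, 4 were higher and 9 were not called, where 19.5% and 17.6% of all tested genes were called. Scaling by library totals alone, which moves the median of all genes to −0.34 for siRNA A and −0.18 for siRNA B, gave 5 members higher and 16 lower with siRNA A and 12 higher and 3 lower with siRNA B. Under that scaling 9.05% of all tested genes were called higher and 47.0% lower with siRNA A, and 6.90% higher and 29.7% lower with siRNA B.

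**Figure D1:**
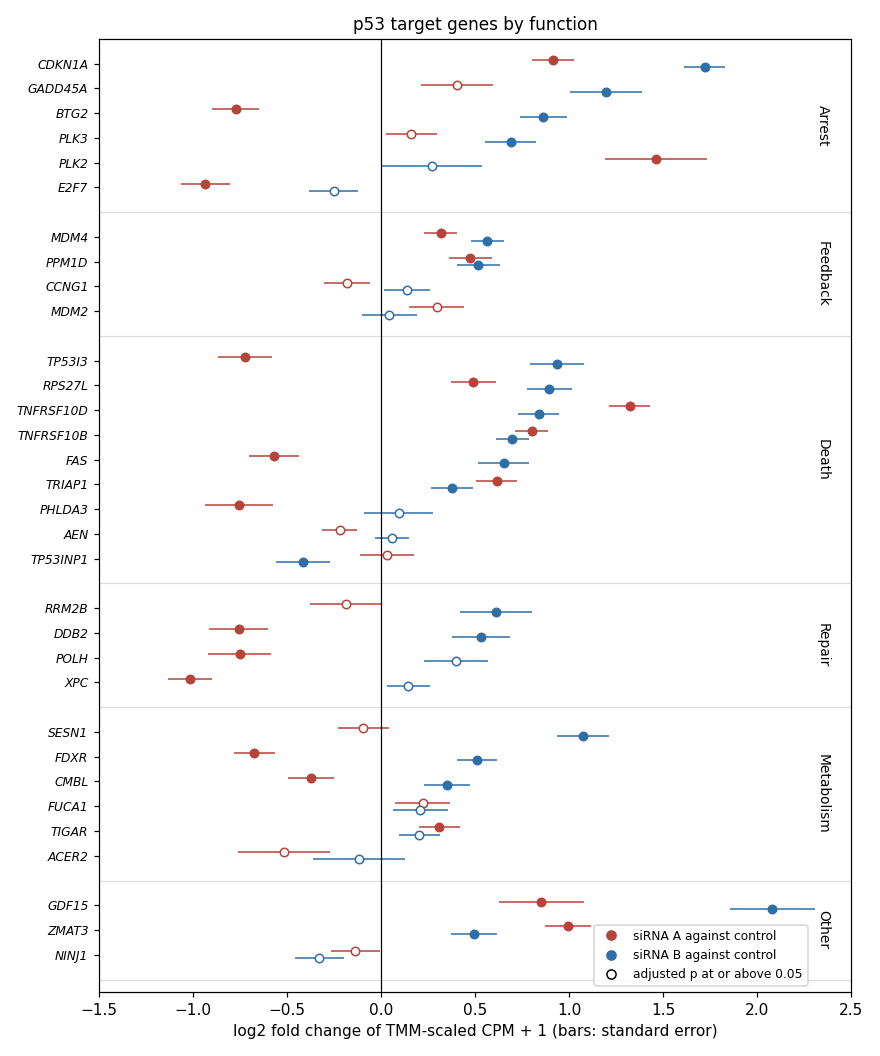
Log2 fold change against control of each of the 32 p53 target genes (x axis, TMM-scaled CPM + 1), grouped by function, for libraries labelled siRNA A (red) and siRNA B (blue). Bars are the standard error and open points have an adjusted p at or above 0.05. Blue points lie mostly right of 0, with 19 members called higher, while filled red points lie on both sides, with 11 higher and 10 lower.

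Among the 6 arrest genes, 4 rose with siRNA B and none fell, while 2 rose and 2 fell with siRNA A. Beside these counts, and those of each role below, stand the shares of all tested genes. With siRNA B 15.6% were called higher and 18.3% lower, and with siRNA A 23.9% and 27.6%. No role was tested against those shares. CDKN1A (ENSG00000124762.7, chr6:36644237-36655114) encodes p21, the inhibitor of cyclin-dependent kinases through which p53 halts the cycle. It stood at 194, 184 and 185 scaled CPM in control libraries, 351, 408 and 309 after siRNA A and 619, 642 and 598 after siRNA B. The groups did not overlap, with control lowest and siRNA B highest. CDKN1A shares 146 exon bases with DINOL, a long non-coding RNA gene on the other strand. CDKN1A rose by 0.91 with siRNA A (SE 0.11 in limma, adjusted p = 5.73e-05) and by 1.72 after siRNA B (SE 0.11 in limma, adjusted p = 1.71e-06), and was lower with siRNA A than with siRNA B by 0.81 (log2 difference −0.81, SE 0.11, limma, adjusted p = 0.000246).

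BTG2 (ENSG00000159388.5, chr1:203274619-203278730) encodes an antiproliferative protein that recruits the CCR4-NOT deadenylase. Its levels were 35.2, 33.3 and 42.5 scaled CPM in control, 22.4, 22.1 and 19.02 after siRNA A and 65.3, 76.4 and 62.0 after siRNA B. Here the control lay between the siRNAs, without overlap. BTG2 fell by 0.77 with siRNA A (SE 0.12 in limma, adjusted p = 0.00038) and rose by 0.86 with siRNA B (SE 0.12 in limma, adjusted p = 0.000379), a difference of −1.63 between them (SE 0.12 in limma, adjusted p = 9.39e-06). GADD45A, a growth arrest and DNA damage protein, measured 29.9, 23.5 and 22.6 scaled CPM in control, 33.3, 46.8 and 24.3 after siRNA A and 61.7, 55.8 and 59.3 after siRNA B. All siRNA B libraries were above every other library, and the siRNA A libraries overlapped the control. GADD45A rose by 1.19 with siRNA B (SE 0.19 in limma, adjusted p = 0.000733). With siRNA A its value of 0.40 was not called (SE 0.19 in limma, adjusted p = 0.0993), although it was with the replicate number as a block (limma, adjusted p = 0.0493) and without siRNA A replicate 3 (0.63, limma, adjusted p = 0.0109).

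PLK2, a polo-like kinase, showed the opposite order. It stood at 107, 123 and 121 scaled CPM in control, 242, 563 and 249 after siRNA A and 129, 181 and 120 after siRNA B. Replicate 2 was the highest library in each siRNA group, and the siRNA A group did not overlap the others. PLK2 rose by 1.46 with siRNA A (SE 0.27 in limma, adjusted p = 0.000909), and its siRNA B value of 0.27 was not called (95% interval −0.32 to 0.86, limma, adjusted p = 0.477). The siRNAs differed by 1.19 (SE 0.27 in limma, adjusted p = 0.00526). Without siRNA A replicate 2 the rise was 1.06 and the difference 0.80, both still called. E2F7, an E2F-family repressor of cell cycle genes, measured 49.9, 58.8 and 62.2 scaled CPM in control, 26.9, 26.8 and 34.5 after siRNA A and 46.8, 52.3 and 43.7 after siRNA B. The siRNA A libraries were the lowest and the siRNA B libraries overlapped the control. E2F7 fell by 0.93 with siRNA A (SE 0.13 in limma, adjusted p = 0.000139), while its siRNA B value was −0.25 (limma, adjusted p = 0.154). PLK3, a further polo-like kinase, rose with siRNA B from 30.7 ± 1.79 to 50.3 ± 6.79 scaled CPM (SD, n = 3; log2 0.69, limma, adjusted p = 0.00244), and its siRNA A value of 0.16 was not called (limma, adjusted p = 0.341).

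**Figure D2:**
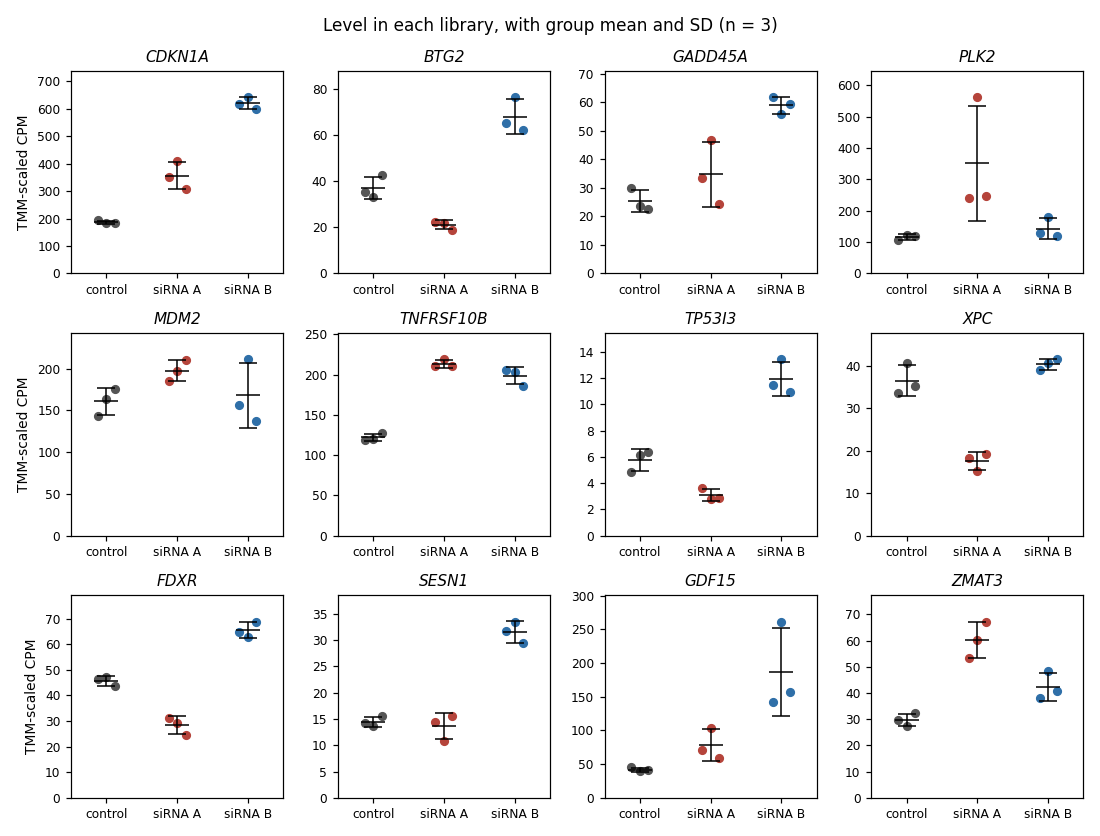
Scaled CPM of 12 p53 target genes in each library (points) for control, siRNA A and siRNA B, with the group mean and SD (bars, n = 3) and each y axis starting at 0. BTG2, TP53I3 and FDXR are lowest with siRNA A and highest with siRNA B, CDKN1A, GDF15 and ZMAT3 are above control in both, and PLK2 has 1 siRNA A library at 563.

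Of the 4 genes that feed back on p53, 2 rose with each siRNA and none fell. MDM2, the ubiquitin ligase that marks p53 for degradation and a standard readout of p53 activity, stood at 144, 164 and 176 scaled CPM in control, 185, 197 and 210 after siRNA A and 156, 211 and 137 after siRNA B. The siRNA A libraries were all above control and the siRNA B libraries overlapped both groups. MDM2 was called in neither comparison, at 0.30 with siRNA A (95% interval −0.02 to 0.62, limma, adjusted p = 0.111) and 0.04 with siRNA B (95% interval −0.28 to 0.36, limma, adjusted p = 0.851). Without siRNA B replicate 2, the highest library of its group, MDM2 was called with siRNA A (0.30, limma, adjusted p = 0.0322). MDM2 shares 133 exon bases with CPM, a carboxypeptidase gene, and 785 with a long non-coding RNA gene, both on the other strand. MDM2 also shares 439 exon bases with a pseudogene on the same strand.

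MDM4, the MDM2 paralogue that inhibits p53, measured 76.3, 76.4 and 77.2 scaled CPM in control, 89.7, 101 and 96.6 after siRNA A and 113, 116 and 112 after siRNA B. The groups did not overlap and siRNA B was highest. MDM4 rose by 0.32 with siRNA A (SE 0.09 in limma, adjusted p = 0.00954) and by 0.56 after siRNA B (SE 0.09 in limma, adjusted p = 0.000544). With library totals alone the siRNA A value was −0.048 (limma, adjusted p = 0.701). PPM1D, the phosphatase WIP1 that ends damage signalling, stood at 52.4, 54.5 and 63.8 scaled CPM in control, 77.6, 76.6 and 83.3 after siRNA A and 75.2, 94.3 and 76.4 after siRNA B. Both siRNA groups were above control and overlapped each other. PPM1D rose by 0.47 with siRNA A (SE 0.12 in limma, adjusted p = 0.00505) and by 0.52 after siRNA B (SE 0.12 in limma, adjusted p = 0.00522), and the siRNAs differed by −0.04 (95% interval −0.30 to 0.21). With totals alone neither was called (limma, adjusted p = 0.437 and 0.0536). CCNG1, cyclin G1, was at 148 ± 16.2, 130 ± 14.2 and 163 ± 19.4 scaled CPM in control, siRNA A and siRNA B (SD, n = 3) and was not called.

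Among the cell death genes, 6 of 9 tested were higher and 1 was lower with siRNA B, and 4 were higher and 3 lower with siRNA A. This role mixes genes that drive death with genes that oppose it. TNFRSF10D and TRIAP1, which oppose it, are counted as higher with both siRNAs. Both TRAIL receptors of the list rose with both siRNAs. TNFRSF10B, the death receptor DR5, stood at 119, 120 and 127 scaled CPM in control, 210, 219 and 211 after siRNA A and 206, 203 and 186 after siRNA B. Every siRNA library was above every control library. TNFRSF10B rose by 0.80 with siRNA A (SE 0.09 in limma, adjusted p = 3.08e-05) and by 0.70 after siRNA B (SE 0.09 in limma, adjusted p = 0.000154), and the siRNAs differed by 0.10 (95% interval −0.09 to 0.30, limma, adjusted p = 0.38). TNFRSF10D, a TRAIL decoy receptor, measured 68.5, 60.9 and 78.7 scaled CPM in control, 178, 161 and 183 after siRNA A and 128, 127 and 117 after siRNA B. The groups did not overlap, and here siRNA A was highest. TNFRSF10D rose by 1.32 with siRNA A (SE 0.11 in limma, adjusted p = 5.72e-06) and by 0.84 after siRNA B (SE 0.11 in limma, adjusted p = 0.000201), a difference of 0.48 (SE 0.11 in limma, adjusted p = 0.00521).

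FAS, a further death receptor, moved in opposite directions. It averaged 12.9 ± 0.523 scaled CPM in control, 8.4 ± 1.06 after siRNA A and 20.97 ± 3.13 after siRNA B (SD, n = 3). FAS fell by 0.57 with siRNA A (SE 0.13 in limma, adjusted p = 0.00418) and rose by 0.65 with siRNA B (SE 0.13 in limma, adjusted p = 0.00329). TP53I3 (ENSG00000115129.9, chr2:24300303-24308731), the quinone oxidoreductase PIG3, stood at 4.83, 6.12 and 6.38 scaled CPM in control, 3.62, 2.80 and 2.89 after siRNA A and 11.5, 13.4 and 10.96 after siRNA B. The groups did not overlap, with control between the siRNAs. TP53I3 fell by 0.72 with siRNA A (SE 0.14 in limma, adjusted p = 0.00149) and rose by 0.94 with siRNA B (SE 0.14 in limma, adjusted p = 0.000542). Its difference of −1.66 between the siRNAs (SE 0.14 in limma, adjusted p = 1.91e-05) was the lowest of all 32 members. These values rest on 37 to 256 reads per library.

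RPS27L, a ribosomal protein paralogue linked to p53-dependent death, measured 54.8, 42.1 and 41.0 scaled CPM in control, 69.9, 64.5 and 59.2 after siRNA A and 85.1, 87.5 and 84.0 after siRNA B. The groups rose in that order without overlap. RPS27L rose by 0.49 with siRNA A (SE 0.12 in limma, adjusted p = 0.00521), a call lost with totals alone (0.13, limma, adjusted p = 0.414), and by 0.89 after siRNA B (SE 0.12 in limma, adjusted p = 0.000237). PHLDA3, an inhibitor of the survival kinase AKT, stood at 23.3, 19.2 and 18.96 scaled CPM in control, 10.6, 16.5 and 8.95 after siRNA A and 22.7, 20.1 and 22.7 after siRNA B. The siRNA A libraries were the 3 lowest, and siRNA B overlapped control. PHLDA3 fell by 0.76 with siRNA A (SE 0.18 in limma, adjusted p = 0.00461), and its siRNA B value was 0.09 (95% interval −0.30 to 0.49). TRIAP1, an inhibitor of apoptosis, rose from 48.0 ± 5.11 to 73.6 ± 1.3 scaled CPM with siRNA A and to 62.6 ± 6.77 with siRNA B (SD, n = 3; limma, adjusted p = 0.000782 and 0.0211), and both calls were lost with totals alone. The siRNA B call was also lost on leaving out control replicate 2, control replicate 3, siRNA B replicate 1 or siRNA B replicate 3 (0.31 to 0.37, limma, adjusted p = 0.0634 to 0.0896).

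TP53INP1, a p53-interacting stress protein, was the 1 member lower with siRNA B. It fell by 0.41 (SE 0.14 in limma, adjusted p = 0.0427), from 15.3 ± 2.02 to 11.2 ± 1.7 scaled CPM (SD, n = 3), and was at 15.6 ± 1.8 with siRNA A. The call was lost without control replicate 2 (−0.43, limma, adjusted p = 0.0851) or 3 (−0.32, limma, adjusted p = 0.162), without siRNA A replicate 3 (−0.41, limma, adjusted p = 0.0544) and without siRNA B replicate 1 (−0.34, limma, adjusted p = 0.145) or 3 (−0.37, limma, adjusted p = 0.115). AEN, an apoptosis-enhancing nuclease, was at −0.22 with siRNA A (limma, adjusted p = 0.061, and 0.0492 with a replicate block) and 0.06 with siRNA B (limma, adjusted p = 0.666).

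The 4 DNA repair genes lay mostly below control with siRNA A, where 27.6% of all tested genes were called lower. This role, like the others, was drawn up with earlier results of these data known. Of 4 genes, 3 fell and none rose with siRNA A, 2 rose and none fell with siRNA B, and all 4 were lower with siRNA A than with siRNA B. XPC, which recognises damage in nucleotide excision repair, stood at 33.7, 40.7 and 35.3 scaled CPM in control, 18.2, 15.3 and 19.3 after siRNA A and 39.0, 40.7 and 41.6 after siRNA B. The siRNA A libraries lay far below the others, which overlapped. XPC fell by 1.02 with siRNA A (SE 0.12 in limma, adjusted p = 4.04e-05), and its siRNA B value was 0.14 (95% interval −0.11 to 0.40, limma, adjusted p = 0.363). XPC shares exon bases with XPC-AS1 on the other strand.

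DDB2, which works beside XPC in damage recognition, measured 25.6, 22.9 and 24.6 scaled CPM in control, 14.0, 12.2 and 16.02 after siRNA A and 40.0, 27.6 and 41.1 after siRNA B. The groups did not overlap, although siRNA B replicate 2 lay near the control. DDB2 fell by 0.76 with siRNA A (SE 0.16 in limma, adjusted p = 0.00176) and rose by 0.53 with siRNA B (SE 0.16 in limma, adjusted p = 0.0206). The rise was lost with totals alone (0.33, limma, adjusted p = 0.162), without control replicate 2 (0.49, limma, adjusted p = 0.0707) or 3 (0.54, limma, adjusted p = 0.0544) and without siRNA B replicate 1 (0.45, limma, adjusted p = 0.0831) or 3 (0.43, limma, adjusted p = 0.077). POLH, the translesion DNA polymerase eta, stood at 25.4, 34.5 and 30.4 scaled CPM in control, 17.0, 13.8 and 22.0 after siRNA A and 34.5, 40.7 and 44.5 after siRNA B. The siRNA A group lay below control, and the lowest siRNA B library was close to the highest control library. POLH fell by 0.75 with siRNA A (SE 0.17 in limma, adjusted p = 0.00309), and its siRNA B value of 0.40 was not called (95% interval 0.03 to 0.77, limma, adjusted p = 0.0886).

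RRM2B, the p53-inducible subunit of ribonucleotide reductase, measured 43.8, 61.2 and 58.1 scaled CPM in control, 40.2, 54.4 and 47.8 after siRNA A and 80.1, 110 and 64.0 after siRNA B. The siRNA B libraries were all above control but spread widely, and siRNA A overlapped control. RRM2B rose by 0.61 with siRNA B (SE 0.19 in limma, adjusted p = 0.0281) and was at −0.19 with siRNA A (limma, adjusted p = 0.432). The rise was lost with totals alone, after correction for GC content, without control replicate 1 (0.46, limma, adjusted p = 0.0958) or 3 (0.66, limma, adjusted p = 0.051) and without siRNA B replicate 1 (0.63, limma, adjusted p = 0.0608) or 2 (0.41, limma, adjusted p = 0.0909).

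Among the 6 metabolic genes, 3 rose and none fell with siRNA B, and 1 rose and 2 fell with siRNA A. SESN1, a sestrin that inhibits the growth kinase complex mTORC1, stood at 14.3, 13.6 and 15.5 scaled CPM in control, 14.5, 10.8 and 15.5 after siRNA A and 31.7, 33.5 and 29.4 after siRNA B. Control and siRNA A overlapped and siRNA B lay far above both. SESN1 rose by 1.07 with siRNA B (SE 0.14 in limma, adjusted p = 0.00016), and its siRNA A value was −0.10 (95% interval −0.39 to 0.20, limma, adjusted p = 0.581). FDXR, the mitochondrial ferredoxin reductase, measured 46.5, 47.0 and 43.5 scaled CPM in control, 31.3, 29.2 and 24.5 after siRNA A and 64.6, 62.7 and 68.8 after siRNA B. Its control lay between the siRNAs without overlap. FDXR fell by 0.67 with siRNA A (SE 0.11 in limma, adjusted p = 0.000358) and rose by 0.51 with siRNA B (SE 0.11 in limma, adjusted p = 0.00385), a rise lost with totals alone (0.30, limma, adjusted p = 0.0667).

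CMBL, a carboxymethylenebutenolidase, stood at 46.0, 45.3 and 38.6 scaled CPM in control, 34.0, 31.1 and 34.1 after siRNA A and 46.8, 60.1 and 60.2 after siRNA B. The groups did not overlap, but siRNA B replicate 1 was close to control. CMBL fell by 0.37 with siRNA A (SE 0.12 in limma, adjusted p = 0.0222) and rose by 0.35 with siRNA B (SE 0.12 in limma, adjusted p = 0.0421). The fall was lost without control replicate 1 (−0.33, limma, adjusted p = 0.0693) or 2 (−0.34, limma, adjusted p = 0.0715) or siRNA A replicate 2 (−0.33, limma, adjusted p = 0.0672), and the rise in 7 of the 9 runs that left out 1 library (all but siRNA A replicate 2 and siRNA B replicate 1), with adjusted p up to 0.159 by limma. The rise was also lost with totals alone (0.14, limma, adjusted p = 0.418). The difference between the siRNAs, −0.73 (SE 0.12 in limma, adjusted p = 0.000867), held in all of them. TIGAR, a fructose bisphosphatase that slows glycolysis, measured 16.1, 18.8 and 16.5 scaled CPM in control, 22.9, 20.3 and 21.1 after siRNA A and 21.02, 20.01 and 18.5 after siRNA B. The siRNA A libraries were above control by a small margin, and siRNA B overlapped both. TIGAR rose by 0.31 with siRNA A (SE 0.11 in limma, adjusted p = 0.0335), was at −0.041 with totals alone, and lost its call without control replicate 1 or 3 or siRNA A replicate 1 or 3 (0.26 to 0.32, limma, adjusted p = 0.0634 to 0.115). FUCA1, a lysosomal fucosidase, and ACER2, an alkaline ceramidase, were not called. ACER2 had the fewest reads of all members, 12 to 57 per library, and under a replicate block its siRNA A value of −0.52 passed (limma, adjusted p = 0.0121).

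Of the 3 remaining members, GDF15 and ZMAT3 rose with both siRNAs. GDF15 (ENSG00000130513.4, chr19:18485541-18499986), a secreted TGF-beta family cytokine, stood at 45.3, 39.6 and 41.1 scaled CPM in control, 71.4, 104 and 59.7 after siRNA A and 143, 262 and 157 after siRNA B. The groups did not overlap, and replicate 2 was highest in both siRNA groups. GDF15 rose by 2.08 with siRNA B (SE 0.23 in limma, adjusted p = 6.07e-05), the highest value of any member, and by 0.85 with siRNA A (SE 0.23 in limma, adjusted p = 0.00827), which was not called with totals alone (0.49, limma, adjusted p = 0.0515). ZMAT3, a zinc finger RNA-binding protein, measured 29.6, 27.5 and 32.2 scaled CPM in control, 53.4, 60.2 and 67.2 after siRNA A and 38.2, 48.3 and 40.6 after siRNA B. The groups did not overlap and siRNA A was highest. ZMAT3 rose by 0.99 with siRNA A (SE 0.12 in limma, adjusted p = 6.87e-05) and by 0.49 after siRNA B (SE 0.12 in limma, adjusted p = 0.00945), a difference of 0.50 (SE 0.12 in limma, adjusted p = 0.00806). The siRNA B rise of ZMAT3 was not called with totals alone (0.29, limma, adjusted p = 0.0854). NINJ1, a membrane protein of plasma membrane rupture, was not called, at 21.5 ± 0.798, 19.7 ± 3.72 and 16.9 ± 0.615 scaled CPM in control, siRNA A and siRNA B (SD, n = 3).

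Set directly against each other, the siRNAs differed in 23 of the 32 members. The 4 members higher with siRNA A were PLK2, TNFRSF10D, ZMAT3 and TP53INP1 (0.45, limma, adjusted p = 0.0291). TP53I3, BTG2, DDB2, GDF15, FAS, FDXR, SESN1, XPC and POLH were each lower with siRNA A by more than 1 on the log2 scale, from −1.66 for TP53I3 to −1.15 for POLH. Some of the smaller differences lost their call when 1 library was left out, with little change in size. MDM4 (−0.25, limma, adjusted p = 0.0423) kept its call only without siRNA A replicate 2, of the 9 runs that left out 1 library (−0.26 to −0.20 in the others, limma, adjusted p = 0.0547 to 0.15). The call was lost for AEN (−0.28, limma, adjusted p = 0.0324) without siRNA A replicate 1 or 2, or replicate 1 or 3 of siRNA B (−0.28 to −0.23, limma, adjusted p = 0.0754 to 0.125), for RPS27L (−0.40, limma, adjusted p = 0.0205) without siRNA A replicate 3 or siRNA B replicate 1 (−0.34 and −0.41, limma, adjusted p = 0.0757 and 0.0547). For TP53INP1 it was lost without siRNA A replicate 2 or 3, or replicate 1 or 3 of siRNA B (0.38 to 0.41, limma, adjusted p = 0.0829 to 0.108). For the 9 members not called the interval was narrowest for TNFRSF10B, given above, and widest for ACER2, from −0.93 to 0.13.

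**Figure D3:**
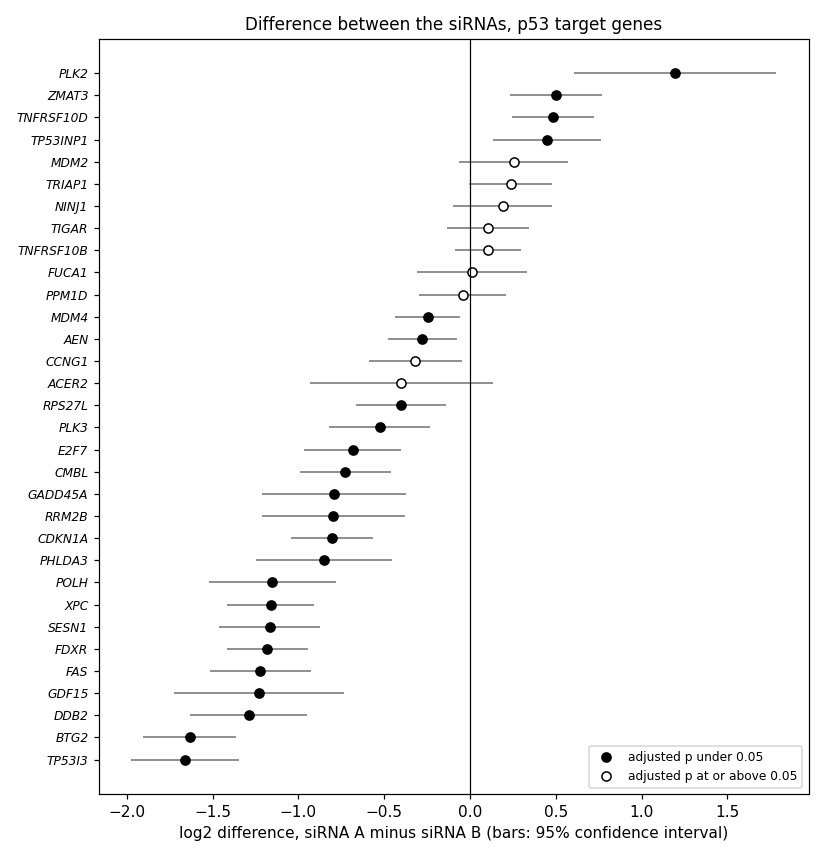
Log2 difference between libraries labelled siRNA A and siRNA B (x axis, positive where siRNA A is higher) for each p53 target gene, ordered by the difference. Bars are 95% confidence intervals and open points have an adjusted p at or above 0.05. PLK2 is at 1.19 at the top and TP53I3 at −1.66 at the bottom, with 19 filled points left of 0 and 4 right of it.

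The members with a response element match did not all move alike. Of the 12 with a match, 8 were higher and none lower with siRNA B, and 5 were higher and 2 lower with siRNA A. Of the 19 scanned without a match, 10 were higher and 1 lower with siRNA B, and 6 were higher and 7 lower with siRNA A. Over all tested genes 15.6% were higher and 18.3% lower with siRNA B, and 23.9% and 27.6% with siRNA A. Members with and without a match were not tested against each other. Set against siRNA B, 2 of the 12 with a match were higher and 7 lower with siRNA A. Of the 19 without a match, 2 were higher and 11 lower. Over all tested genes 17.6% were higher and 19.5% lower. PLK2 and ZMAT3, whose matches had 0 mismatches, were both higher with siRNA A than with siRNA B. TNFRSF10D and TP53INP1, also higher with siRNA A, had no match. CDKN1A, BTG2, GADD45A and GDF15, with the upstream or intronic sites printed above, were all lower with siRNA A than with siRNA B.

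Other genes of the p53 pathway were read for comparison. Among 17 tested regulators of p53, 7 were higher and none lower with siRNA A, and 5 were higher and 2 lower with siRNA B, with medians of 0.23 and 0.22. RPL5 and RPL11, the ribosomal proteins that bind MDM2 when ribosome assembly is disturbed, rose by 0.99 and 0.95 with siRNA A (SE 0.13 and 0.16, limma, adjusted p = 0.000101 and 0.000521) and by 0.73 and 0.62 with siRNA B (SE 0.13 and 0.16, limma, adjusted p = 0.00136 and 0.0114). EP300 and CREBBP, acetyltransferases that serve as p53 coactivators, rose by 0.68 and 0.62 with siRNA A (limma, adjusted p = 0.00152 and 0.000419) and by 0.64 and 0.43 with siRNA B (limma, adjusted p = 0.00428 and 0.00706). With totals alone EP300 and CREBBP were not called with siRNA A (limma, adjusted p = 0.0553 and 0.0556), nor RPL11 and CREBBP with siRNA B (limma, adjusted p = 0.0639 and 0.123).

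Of 22 other p53 targets, 19 were tested, and 7 were higher and 3 lower with siRNA A (median 0.14), and 9 higher and none lower with siRNA B (median 0.36). PMAIP1 and BBC3 encode NOXA and PUMA, which trigger mitochondrial death. PMAIP1 stood at 90.6 ± 9.59 scaled CPM in control, 270 ± 33.3 after siRNA A and 263 ± 51.3 after siRNA B (SD, n = 3), and rose by 1.56 and 1.51 (SE 0.15 in both, limma, adjusted p = 1.19e-05 and 3.07e-05). BBC3 rose by 0.86 and 1.01 (SE 0.20 in both, limma, adjusted p = 0.00335 and 0.00227). SESN2, a sestrin also driven by the integrated stress response, and DRAM1, a lysosomal protein of autophagy, rose with both siRNAs, by 1.14 and 0.98 with siRNA A and 1.24 and 1.08 with siRNA B. No difference between the siRNAs was called for these 4, with values from −0.15 for BBC3 to 0.05 for PMAIP1. Of all 19 tested, 2 were higher and 5 lower with siRNA A than with siRNA B. Over all tested genes 17.6% were higher and 19.5% lower. BAX and APAF1, of the mitochondrial death machinery, were chosen after their values were seen. APAF1 fell by 0.79 with siRNA A (SE 0.14 in limma, adjusted p = 0.000544) and was lower than with siRNA B (log2 difference −1.16, SE 0.14 in limma, adjusted p = 9.92e-05), with a siRNA B value of 0.36 (limma, adjusted p = 0.0566). BAX was at −0.38 and 0.37 (limma, adjusted p = 0.0236 and 0.0379), and both calls were lost in some runs without 1 library, while its difference of −0.75 had an adjusted p of 0.000833 by limma.

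Cell cycle genes that p53 represses through p21 and the DREAM complex were read next. Of 22 tested, 11 were lower and 2 higher with siRNA A (median −0.28), and 6 were lower and 3 higher with siRNA B (median 0.03). Over all tested genes 27.6% were lower and 23.9% higher with siRNA A, and 18.3% lower and 15.6% higher with siRNA B, and these shares stand beside the other lists too. MYBL2, a cell cycle transcription factor of the MuvB complex, fell from 199 ± 8.17 scaled CPM in control to 46.9 ± 1.87 after siRNA A and 85.0 ± 17.3 after siRNA B (SD, n = 3; log2 −2.06 and −1.24, SE 0.13 in both, limma, adjusted p = 1.96e-06 and 6.07e-05). E2F1, an activator of S phase genes, fell by 1.67 and 1.09 (SE 0.18 in both, limma, adjusted p = 2.39e-05 and 0.00072), and BIRC5, the apoptosis inhibitor survivin, fell by 0.81 and 1.31 (SE 0.15 in both, limma, adjusted p = 0.000814 and 7.52e-05). CKS1B, a small subunit of cyclin-dependent kinases, rose by 0.76 and 0.57 (limma, adjusted p = 0.000499 and 0.00569).

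Stress pathways that share targets with p53 were read as well. Of 9 integrated stress response genes, 8 were higher with siRNA A and 6 with siRNA B, and none was lower (medians 1.08 and 0.93). ATF3, a stress transcription factor, rose by 2.53 with siRNA A and 1.34 with siRNA B (SE 0.29 in both, limma, adjusted p = 4.42e-05 and 0.00456), with siRNA A replicate 2 at 203 scaled CPM against 95.6 and 92.1 in the other two. That library was also the highest for PLK2. CHAC1, a glutathione-degrading enzyme, rose by 1.60 with siRNA A (limma, adjusted p = 0.000492), and its siRNA B value of 0.37 was not called (limma, adjusted p = 0.316), a difference of 1.23 (limma, adjusted p = 0.00432). DDIT3 (CHOP) rose by 0.94 and 1.58 (limma, adjusted p = 0.00487 and 0.000359). PPP1R15A, the phosphatase subunit GADD34, rose by 1.32 and 1.07 (limma, adjusted p = 0.000308 and 0.00218). GDF15, TNFRSF10B, PMAIP1, BBC3 and SESN2 are known targets of this response as well as of p53, and the part of either pathway in their rise was not tested. Of 8 tested interferon-induced genes, none was higher with either siRNA, and 5 were lower with siRNA A and 3 with siRNA B (medians −0.48 and −0.46). The RNA sensor genes IFIH1 and RIGI fell by 0.62 and 0.55 with siRNA A and by 0.93 and 0.82 with siRNA B. IFIT1, at 16 to 72 reads per library, fell by 0.57 with siRNA A (limma, adjusted p = 0.0165) and was not called with siRNA B (limma, adjusted p = 0.0522). IFIT3 was lower by 0.86 and 0.72, at 4 to 38 reads per library. It reached 1 CPM in control libraries alone (1.45 to 1.97 CPM), so the filter kept it through the group where it is high. Its fall is included in the counts of lower genes above and is no independent support for them.

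**Figure D4:**
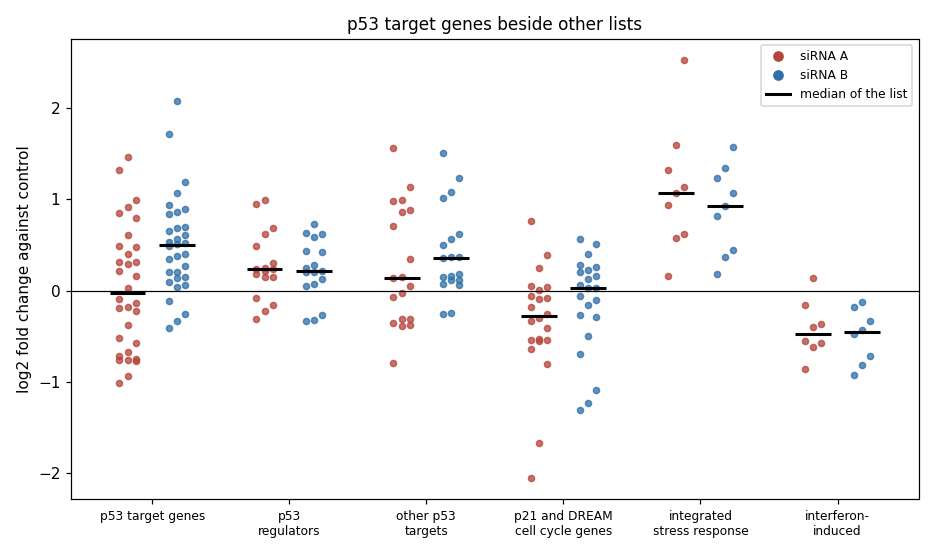
Log2 fold change against control (y axis, TMM-scaled CPM + 1) of each tested gene (points) in the p53 target list and 5 other lists, with siRNA A in red, siRNA B in blue and the median of each list as a bar. The p53 targets have medians of −0.03 with siRNA A and 0.50 with siRNA B, and the integrated stress response genes 1.08 and 0.93.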

How the data were processed

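RNA-seq libraries of HCT116 cells (3 control, 3 siRNA A, 3 siRNA B) were grouped by their titles. The authors deposited 1 table of CPM values with no scaling beyond library totals. The submitters' processing notes name TopHat2, HTSeq, GRCh37 and hg19, and the use of strand is not given in the sources used here. All deposited CPM values (100%) were whole multiples of 1 read within 0.01, so reads and depths (15566530 to 23277549) were recovered, and 3 reads correspond to 0.129 to 0.193 CPM. That floor covers counting error only.

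Symbols and coordinates were taken from GENCODE lifted to GRCh37 (14871 of 15354 identifiers matched). CPM were scaled by TMM factors (group means 1.14, 0.886 and 0.988 for control, siRNA A and siRNA B), and limma 3.58.1 with a variance trend was fitted in R 4.3.3 to log2(CPM + 1) of all 9 libraries. Fold changes of low genes are understated on this scale. The Benjamini-Hochberg adjustment covered 13893 genes that reached 1 CPM in 3 libraries or more, and the functions were tested on simulated data first. Sequence scans and plots used Python 3.11.15. Alternatives were scaling by totals or DESeq2 size factors, a pseudocount of 0.1, no filter, edgeR 4.0.16 (quasi-likelihood) and DESeq2 1.42.0 on the recovered reads, GC correction, a replicate block, and leaving out each library.

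Libraries of a group correlated with r of 0.983 to 0.994 and differed beyond sampling noise (chi-square per degree of freedom at least 13.2), so all were kept. Deviations of same-numbered control and siRNA A libraries correlated at 0.65, 0.41 and 0.13. Those with siRNA B were at 0.17, 0.44 and −0.39 against control and 0.20, 0.44 and 0.02 against siRNA A. Libraries of different numbers were not compared, so this check cannot decide whether the numbers mark pairs. The main fit did not use the replicate number, and the replicate block did.

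The members, roles, lists and naming rule were chosen with earlier results of these data known. Per-library values are given for CDKN1A and MDM2 and, in each role, for up to 5 called members with the largest change against control. From each other list up to 4 called genes with the largest change are named, and 1 gene of the pathway is not reported here. Genes that share exon bases with another gene (among them CDKN1A, MDM2, FAS, TNFRSF10B, PLK3, POLH, TP53I3, TP53INP1, XPC, PHLDA3, SESN1 and TIGAR) may hold reads of both.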

Additional observations from a re-analysis of the deposited data

How the results depend on the processing

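Of the members called, 14 of 21 with siRNA A, 12 of 20 with siRNA B and 19 of 23 between the siRNAs kept their call and direction in all 17 alternatives. Library totals alone gave 5 members higher and 16 lower with siRNA A and 12 higher and 3 lower with siRNA B, and turned MDM4 to −0.048 and TIGAR to −0.041 with siRNA A, neither then called. With siRNA A that scaling also called CCNG1, AEN, RRM2B, SESN1, ACER2 and NINJ1 lower, which the main fit did not. Their values were −0.74 to −0.44 (limma, adjusted p = 0.000819 to 0.0233). Over all genes tested, that scaling called 9.05% higher and 47.0% lower with siRNA A, and 6.90% and 29.7% with siRNA B. Relative to TMM, scaling by totals lowers the fold changes against control, and TMM raises them relative to totals. Both shifts follow from the factors themselves. Which scaling is the better was not tested. The count of members lower with siRNA B was 0 without the filter on low values and 2 with the replicate block, and ran from 0 to 1 when 1 library was left out. Leaving out 1 library gave 10 to 12 members higher and 9 to 12 lower with siRNA A, 15 to 19 higher with siRNA B, and 3 to 5 higher and 16 to 18 lower between the siRNAs. With the replicate block, 12 members were higher and 12 lower with siRNA A, 20 higher and 2 lower with siRNA B, and 4 higher and 20 lower between the siRNAs. Over all genes the block called 27.5% higher and 30.8% lower with siRNA A, 19.9% and 21.8% with siRNA B, and 21.5% and 23.3% between the siRNAs. The block added POLH (limma, adjusted p = 0.0371) and NINJ1 (limma, adjusted p = 0.0418) with siRNA B and CCNG1 between the siRNAs (limma, adjusted p = 0.0436). It changed no other call of a member beyond GADD45A, AEN and ACER2, given above. Between the siRNAs the calls of AEN, MDM4, RPS27L and TP53INP1 were lost without some single library. At 12 to 57 reads per library, ACER2 is the member whose level depth limits most.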
